A study of Mus musculus with 3 samples.

Results

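The genes described here encode receptor tyrosine kinases, the cell surface receptors that bind growth factors, ephrins or collagen outside the cell and phosphorylate tyrosines inside it. They were taken from arrays of 3 normal mouse muscles (muscle 1, muscle 2 and muscle 3), the normal tissue set beside tumours of Pax7-expressing satellite cells in a study of soft-tissue sarcoma. All 3 samples carry the genotype label littermate control and an age of 3 to 6 weeks, and the labels name neither the strain, the muscle nor whether each sample came from a separate animal. The treatment text shared by the samples speaks of 4-hydroxytamoxifen injected into the hindlimb and of the tumours that formed, and does not say whether these littermates were injected. No tumour array enters the values below, which are levels in the reference tissue and their error, with no contrast between conditions. Members were 32 genes listed by name and every gene on the array whose symbol starts with Epha or Ephb and a digit, of which there were 11. All 43 were on the array, out of 12394 genes in all, and they were measured by 84 of 22690 probe sets. Gene levels are log2 RMA values of the probe set with the highest mean, written as mean ± SD over the 3 muscles (n = 3). Where 3 values are listed for a gene, they are those of muscle 1, muscle 2 and muscle 3 in that order.

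A receptor tyrosine kinase usually dimerises when its ligand binds, the kinase domains phosphorylate each other, and adaptor proteins then recruit Ras, phosphatidylinositol 3-kinase and phospholipase C. Muscle tissue holds several cell types that rely on different members: insulin and IGF receptors act on fibres, FGF and MET receptors on satellite cells, PDGF receptors on fibroblastic cells and pericytes, VEGF and TIE receptors on endothelium, and ERBB receptors at nerves and Schwann cells. Several of these receptors are also drug targets in sarcoma.

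A gene was called above background in a muscle when its level passed a line drawn from 122 probe sets of 88 genes of other organs, at 6.22, 6.46 and 6.35 for muscles 1, 2 and 3. Of the 43 receptors, 14 passed the line in all 3 muscles, 2 (Ddr2 and Ptk7) passed it in muscle 1 only, and 27 stayed below it throughout. Over all genes on the array the share above background in all 3 muscles was 52.8%, and the share above it in none was 42.4%. The 14 receptors were Fgfr1, Pdgfra, Pdgfrb, Egfr, Erbb3, Kdr, Flt1, Tek, Axl, Ntrk2, Ddr1, Epha2, Ephb3 and Ephb4. Since probe sets bind with different strength, levels are not ranked between genes, and a gene below the line may still be expressed. With the background at the 99th percentile of the same probe sets the count was 3 (Fgfr1, Pdgfra and Pdgfrb), and with the probe sets of each gene averaged it was 9. The shares over all genes were then 30.3% and 44.1%. As whole tissue was measured, fewer cells of a type and less RNA per cell cannot be told apart.

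The labelled tissue was checked against its markers, and all 5 skeletal muscle genes (Acta1, Ckm, Myh4, Ttn and Des) were above background in each muscle, with means from 12.69 for Des to 13.62 for Acta1. Some markers of other cells passed the line as well. All 5 endothelial, all 5 fibroblast and all 6 pericyte and smooth muscle genes were above background in every muscle. So were 3 of 4 measured Schwann cell genes, 3 of 5 satellite cell genes, 3 of 5 macrophage genes, 2 of 4 adipocyte genes and 1 of 6 mast cell genes. Over all genes the share was 52.8%, so counts near or under it do not show that those cells were present. The 3 arrays shared a median of 6.12 over the whole table, as the quantile normalization in their processing makes medians alike.

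Promoter windows are shown for 5 receptors, from Tek with few CpG pairs to Igf1r with many, because the members differ in base composition. Each runs from 250 bases before to 50 bases after an annotated start in RefSeq (assembly GRCm38.p6), and is written 5′ to 3′ on the strand of the gene. Capitals mark matches on either strand to 3 motifs. The first is TATAAA, the letters of the TATA box. The GC box is searched as GGGCGG. The core bound by ETS factors is searched as CCGGAA. No match to 1 of these overlapped a match to another in these windows. Pdgfra lies at chr5:75152001-75152300 (plus strand), Tek at chr4:94739039-94739338 (plus), Kdr at chr5:75978406-75978705 (minus), Flt1 at chr5:147725962-147726261 (minus) and Igf1r at chr7:67952007-67952306 (plus).
Pdgfra: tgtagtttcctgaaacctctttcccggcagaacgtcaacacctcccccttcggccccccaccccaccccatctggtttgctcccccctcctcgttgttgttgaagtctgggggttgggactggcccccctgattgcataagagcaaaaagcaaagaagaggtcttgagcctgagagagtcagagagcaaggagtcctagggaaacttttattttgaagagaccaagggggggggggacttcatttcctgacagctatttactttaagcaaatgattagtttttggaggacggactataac
Tek: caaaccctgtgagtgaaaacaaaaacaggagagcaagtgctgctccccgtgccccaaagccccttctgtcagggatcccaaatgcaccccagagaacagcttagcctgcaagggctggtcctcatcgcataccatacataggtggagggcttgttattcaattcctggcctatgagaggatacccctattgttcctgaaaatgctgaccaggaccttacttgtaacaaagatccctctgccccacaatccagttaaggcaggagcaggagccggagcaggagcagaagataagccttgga
Kdr: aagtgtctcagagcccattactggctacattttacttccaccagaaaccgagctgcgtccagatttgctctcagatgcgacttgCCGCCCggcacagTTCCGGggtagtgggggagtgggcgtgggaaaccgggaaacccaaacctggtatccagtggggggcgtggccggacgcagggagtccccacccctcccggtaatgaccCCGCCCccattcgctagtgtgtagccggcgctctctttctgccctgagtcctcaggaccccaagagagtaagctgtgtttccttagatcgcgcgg
Flt1: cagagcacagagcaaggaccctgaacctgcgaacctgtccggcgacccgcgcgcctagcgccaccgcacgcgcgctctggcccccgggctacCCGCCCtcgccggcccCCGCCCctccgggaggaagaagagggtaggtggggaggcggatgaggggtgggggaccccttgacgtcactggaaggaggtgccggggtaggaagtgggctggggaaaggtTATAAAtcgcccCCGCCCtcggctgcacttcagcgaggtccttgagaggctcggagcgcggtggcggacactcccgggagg
Igf1r: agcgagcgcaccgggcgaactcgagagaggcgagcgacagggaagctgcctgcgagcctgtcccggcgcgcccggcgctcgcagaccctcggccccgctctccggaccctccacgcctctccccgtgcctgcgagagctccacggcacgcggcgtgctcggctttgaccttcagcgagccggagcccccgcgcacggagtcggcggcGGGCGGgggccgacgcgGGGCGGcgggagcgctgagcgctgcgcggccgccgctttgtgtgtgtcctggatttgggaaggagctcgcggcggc

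Windows were found for 37 of the 43 receptors, 43 windows in all, and Fgfr1, Pdgfrb, Insr, Erbb3, Ret and Ntrk3 had none in the table. The GC content of the receptor windows had a median of 64.3%, from 39.0% for Ddr2 to 84.3% for Epha8, against a median of 59.0% over the 12567 windows of genes on the array. A GC box was found in 33 of 43 receptor windows (76.7%), against 55.4% of windows of genes on the array and 35.7% of all windows in the table. The letters TATAAA occurred in the windows of Flt1 and Ddr2 only (4.65% of receptor windows, 9.81% for genes on the array), and the ETS core in 7 windows (16.3% and 22.4%), among them Kdr. The 27 windows of receptors below background in every muscle held a median of 21 CpG pairs, and the 14 windows of receptors above it in all muscles a median of 12, against 17 for genes on the array. Single windows held from 2 CpG pairs (Ddr2) to 56 (Epha8), and of the sequences above Tek has 3 and Igf1r 48. Ddr1 gave 4 of the 14 windows, so windows are not independent. These figures describe the letters only.

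**Figure D1:**
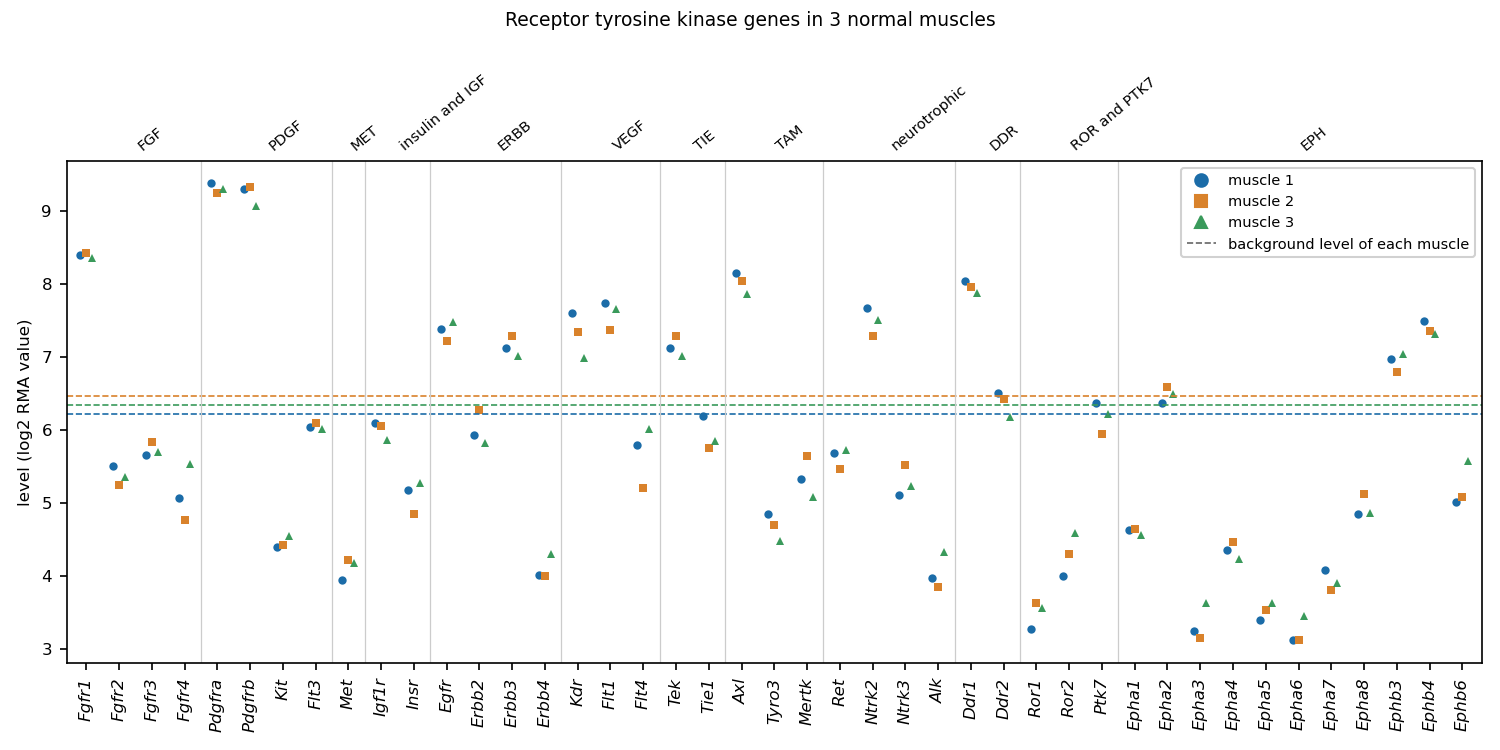
Level of each receptor gene (log2 RMA value, vertical axis) in muscle 1 (circles), muscle 2 (squares) and muscle 3 (triangles), grouped by receptor family, with the background level of each muscle as a dashed line of the same colour. The 14 genes with all points above their lines include Fgfr1, Pdgfra and Pdgfrb, and the members of the insulin, MET and ROR groups lie below the lines apart from Ptk7 in muscle 1.

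Of the FGF receptors, which bind fibroblast growth factors together with heparan sulphate, only Fgfr1 was above background. Fgfr1 was at 8.41, 8.43 and 8.37, a mean of 8.40 ± 0.03. The 3 muscles spanned 0.06, and 12.2% of genes of like level (within 0.5) had a smaller SD. A second Fgfr1 probe set was below background throughout, with a mean of 5.31, and without the probe sets marked as matching several transcripts this gene was no longer called. Fgfr2 and Fgfr3 were at 5.37 ± 0.13 and 5.73 ± 0.09, and no probe set of either passed the line in any muscle. Fgfr4, the FGF receptor known from regenerating muscle and from rhabdomyosarcoma, was at 5.07, 4.77 and 5.54, and none of its 5 probe sets passed the line in any muscle. Among 18 FGF ligands 1 was above background, the broadly acting Fgf1 at 7.49 ± 0.13. Of the FGF co-receptors, Fgfrl1, which lacks a kinase domain, was at 7.38 ± 0.06, and the klotho genes Kl and Klb were below background.

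Both PDGF receptors were far above background. Pdgfra, which marks the fibro-adipogenic cells between fibres, was at 9.38, 9.25 and 9.31 (9.31 ± 0.07). Pdgfrb, the receptor of pericytes and other mural cells, was at 9.30, 9.33 and 9.07 (9.24 ± 0.15). Muscle 3 was thus the lowest for Pdgfrb by this probe set. By the other Pdgfrb probe set, at 7.13, 7.21 and 7.56, muscle 3 was the highest, so the order of the muscles was not shared by the 2 probe sets. The second Pdgfra probe set was below background throughout, with a mean of 3.64. The fibroblast markers Col1a1, Col1a2, Dcn, Lum and Col3a1 and the mural markers Acta2, Rgs5 and Notch3 were above background in every muscle, with the mural gene Cspg4 at 7.35, 7.46 and 7.86. Of 4 PDGF ligands, Pdgfa (8.39 ± 0.03), Pdgfb (7.52 ± 0.02) and Pdgfc (6.49 ± 0.15) were above background in each muscle, and Pdgfd was not, at 2.80 ± 0.23.

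The related receptors Kit, of mast cells and other blood lineages, and Flt3, of blood progenitors and dendritic cells, were below background. Kit was at 4.46 ± 0.08, with its second probe set at 3.48. Flt3 was at 6.05, 6.11 and 6.02, between 0.17 and 0.36 under the line. The Kit ligand gene Kitl was at 9.48 ± 0.01, above background in all muscles. Of the mast cell markers, Cpa3 was at 7.67 ± 0.17, above the line in every muscle, whereas Fcer1a and Ms4a2 were below it in each. Cma1 passed it in 2 muscles, and Mcpt4 and Tpsb2 in 1 each.

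The receptors of insulin and the insulin-like growth factors, which drive glucose uptake and growth of fibres, were below this background by every probe set. Insr was at 5.18, 4.86 and 5.27 (5.10 ± 0.22), and its other probe set had a mean of 4.66. Igf1r came closer, at 6.10, 6.05 and 5.86 (6.00 ± 0.13), from 0.12 to 0.49 under the line, and its other probe set had a mean of 5.07. Its call depends on where the line is drawn. With the background at the 90th percentile of the same probe sets (5.88, 5.88 and 6.02), an alternative chosen after seeing the data, Igf1r was above it in muscles 1 and 2, and Insr in none. Their ligands were measured well above background, with Igf1 at 10.53 ± 0.07 and Igf2 at 11.55 ± 0.01. The pancreatic hormone gene Ins2 also passed the line in every muscle, at 6.84 ± 0.04, as did 4 of the 88 background genes themselves. Irs1, the docking protein that carries the signal of both receptors, was at 11.32 ± 0.01. Grb10 and Grb14, adaptors that inhibit these receptors, were at 10.55 ± 0.05 and 8.37 ± 0.13.

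Met, the receptor of hepatocyte growth factor on satellite cells, was at 3.94, 4.22 and 4.18, 2.17 or more below the line in every muscle, by the single probe set on the array. Its ligand Hgf was below background too, at 4.49 ± 0.19. Of the satellite cell markers, Pax7 and Calcr were below background in every muscle (5.31 ± 0.19 and 4.69 ± 0.06), while Myf5, Cdh15 and Vcam1 were above it.

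Of the ERBB receptors, Egfr and Erbb3 were above background. Egfr was at 7.38, 7.23 and 7.49 (7.37 ± 0.13), yet its other 4 probe sets had means from 5.10 to 6.26, and the highest of these passed the line in muscle 1 alone. Erbb3, whose own kinase is nearly inactive and which signals by pairing with Erbb2, was at 7.13, 7.29 and 7.02 (7.15 ± 0.14), with its second probe set at 4.04. Its partner Erbb2 was at 5.94, 6.28 and 5.82 (6.01 ± 0.24), between 0.19 and 0.53 under the line. Erbb4, the other neuregulin receptor, was at 4.11 ± 0.16. Erbb3 and Erbb2 serve neuregulin signals in Schwann cells, and of the Schwann markers Mbp (10.04 ± 0.04), Pmp22 (11.31 ± 0.03) and Sox10 (6.80 ± 0.15) were above background and S100b was below it. Of 8 measured ERBB ligands, Egf (7.32 ± 0.06) and Hbegf (8.70 ± 0.02) were above background in each muscle and 6 in none. Nrg1 and Nrg2 have no value here.

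Of the receptors of blood vessels, 2 of 3 VEGF receptors and 1 of 2 TIE receptors were above background in all muscles, as were 52.8% of all genes. Kdr, the main VEGF receptor of endothelium, was at 7.60, 7.35 and 6.99 (7.31 ± 0.31). Muscle 3 was the lowest and muscle 1 the highest, a 1.53-fold span and the widest among the 16 receptors above background in at least 1 muscle. Flt1, which binds VEGF tightly and signals weakly, was at 7.74, 7.38 and 7.67 (7.60 ± 0.19), with muscle 2 the lowest. A second Flt1 probe set gave 7.33, 7.04 and 7.11, again lowest in muscle 2, and the remaining probe set was below background with a mean of 5.47. Flt4, the receptor of lymphatic endothelium, was below background at 5.80, 5.21 and 6.01. Tek, which binds angiopoietins, was at 7.13, 7.28 and 7.02 (7.15 ± 0.13). Its orphan relative Tie1 was at 6.19, 5.75 and 5.85, under the line by 0.03 in muscle 1 and by 0.71 in muscle 2. The 5 endothelial markers had mean levels of 7.55, 7.54 and 7.55, so the list as a whole did not follow Kdr. Cdh5 among them was at 8.56, 8.62 and 8.30, lowest in muscle 3, and Esam was at 7.57, 7.65 and 7.79, highest there. Of 5 measured VEGF ligands 3 were above background in every muscle, with Vegfa at 7.65 ± 0.19, Vegfb at 8.62 ± 0.26 and Vegfd at 7.06 ± 0.09. Pgf was above it in 2 muscles and Vegfc in none. The angiopoietins Angpt1, Angpt2 and Angpt4 were all below background, with means of 4.62, 5.74 and 3.57.

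Among the TAM receptors, which recognise dying cells through Gas6 and protein S, only Axl was above background. Axl was at 8.15, 8.04 and 7.86 (8.02 ± 0.15), highest in muscle 1 and lowest in muscle 3. Its other probe set, of the kind marked as matching several transcripts, had a mean of 2.71. Mertk, the receptor of phagocytic macrophages, was at 5.34, 5.64 and 5.08, and Tyro3 at 4.68 ± 0.19. The macrophage markers Adgre1 (8.44 ± 0.15) and Mrc1 (8.52 ± 0.08) and the receptor tyrosine kinase Csf1r (9.80 ± 0.09) were above background in each muscle, and Cd68 was below it. The shared ligand Gas6 was at 9.21 ± 0.08, and the protein S gene Pros1 at 6.50, 6.47 and 6.22, above the line in 2 muscles.

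Of the receptors of neurotrophic factors, Ntrk2 was above background at 7.68, 7.29 and 7.51 (7.49 ± 0.20). Another Ntrk2 probe set had a mean of 3.46. Ntrk2 is known to have a form without kinase domain, and these values do not tell which form was measured. Ntrk3 was at 5.29 ± 0.21, with 4 probe sets below background. Ret, the signalling receptor for GDNF ligands, was at 5.63 ± 0.14, and Alk at 4.05 ± 0.25. The GDNF co-receptors Gfra2 (7.49 ± 0.36) and Gfra3 (7.22 ± 0.05) were above background, Gfra1 was below it, and Gfra4 was below it at 5.69, 6.20 and 4.85. Of the ligands, neurturin (Nrtn) was above background at 6.57 ± 0.04, Gdnf, Artn and Pspn were below, and Bdnf was below at 5.62, 6.31 and 6.20.

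The discoidin domain receptors bind fibrillar collagen. Ddr1 was at 8.05, 7.96 and 7.88 (7.96 ± 0.08). Of its 8 probe sets, 2 were above background in all muscles. The other of these gave 7.54, 7.65 and 7.70, so muscle 1 was the highest by the first and the lowest by the second. Ddr2, the receptor of fibroblasts, was at 6.51, 6.43 and 6.18 (6.37 ± 0.17), above the line in muscle 1 only and 0.17 under it in muscle 3. The collagens Col1a1 and Col1a2 were at 11.36 ± 0.07 and 12.88 ± 0.04. The Wnt receptors Ror1 and Ror2 were below background at 3.49 ± 0.18 and 4.30 ± 0.29. Ptk7, a member without kinase activity, was at 6.38, 5.94 and 6.23 (6.18 ± 0.22), above the line in muscle 1 only. Wnt5a, a ligand of the ROR receptors, was at 6.87 ± 0.13.

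Of the 11 Eph receptors, the largest family, 3 passed the line in all muscles and 8 did not pass it in any. Ephb4, which marks venous endothelium, was at 7.50, 7.36 and 7.32 (7.39 ± 0.09). Ephb3 was at 6.98, 6.80 and 7.04 (6.94 ± 0.12). Epha2 was at 6.37, 6.59 and 6.49 (6.48 ± 0.11), from 0.13 to 0.15 above the line, so its call is a narrow one. Epha1, Epha3, Epha4, Epha5, Epha6, Epha7 and Epha8 had means from 3.24 for Epha6 to 4.95 for Epha8. Ephb6, whose kinase is inactive, was at 5.02, 5.09 and 5.57. Of 8 ephrins, the ligands on neighbouring cells, 3 were above background in each muscle, Efna1 at 6.52 ± 0.05, Efnb1 at 7.44 ± 0.05 and Efnb2, the partner of Ephb4, at 7.66 ± 0.10. Efnb3 was above it in 2 muscles, and 4 A-type ephrins were below it.

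**Figure D2:**
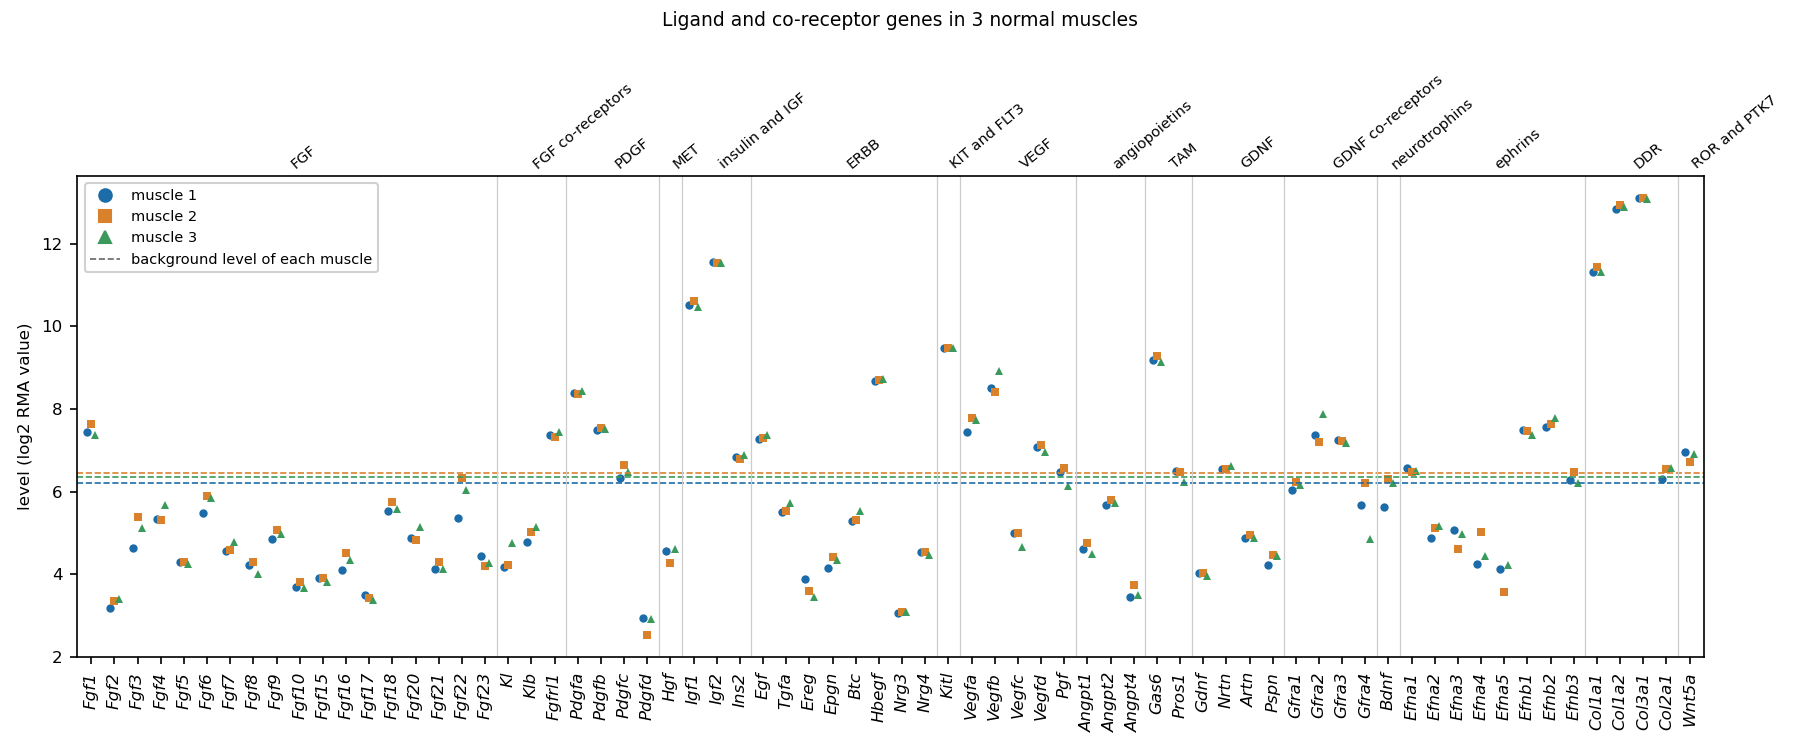
Level of each measured ligand and co-receptor gene (log2 RMA value, vertical axis) in the 3 muscles, grouped by the receptor family it serves, with the background level of each muscle dashed. The FGF ligands other than Fgf1 and the angiopoietins lie below the lines, whereas Igf1, Igf2, Kitl, Gas6, Col1a1, Col1a2 and Col3a1 lie well above them in all 3 muscles.

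Signalling genes downstream of the receptors were mostly above background. Of 17 measured adaptors and effectors 12 were above it in all muscles, and of 14 inhibitors and ubiquitin ligases 12 were, against 52.8% of all genes. Grb2, the adaptor that couples receptors to Ras, was at 8.99 ± 0.07, Sos2, a Ras exchange factor, at 8.97 ± 0.02, and the adaptor Shc1 at 7.15, 6.65 and 6.80. Sos1, Gab2, Pik3r1 and Plcg1 were below the line in every muscle. The feedback inhibitors Spry1, Spry2 and Spred1 were at 8.83 ± 0.01, 7.95 ± 0.13 and 7.35 ± 0.15. The difference in share between these lists and the receptors was not tested. Of 8 other measured receptor tyrosine kinases, Csf1r and Ryk (8.57 ± 0.07) were above background, and Musk, the agrin-responsive receptor of the neuromuscular junction, was below it at 5.79 ± 0.07.

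Where a receptor had several probe sets, they often fell on both sides of the line. Of the 14 receptors above background in all muscles, 9 had at least 2 probe sets, and 8 of these, all but Pdgfrb, had another probe set below background in every muscle. Among all such genes on the array the share was 58.3%. When every probe set of a gene had to pass, 6 receptors were left, Pdgfrb, Kdr, Tek, Epha2, Ephb3 and Ephb4, of which all but Pdgfrb have 1 probe set only. Under this rule 34.8% of all genes passed.

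**Figure D3:**
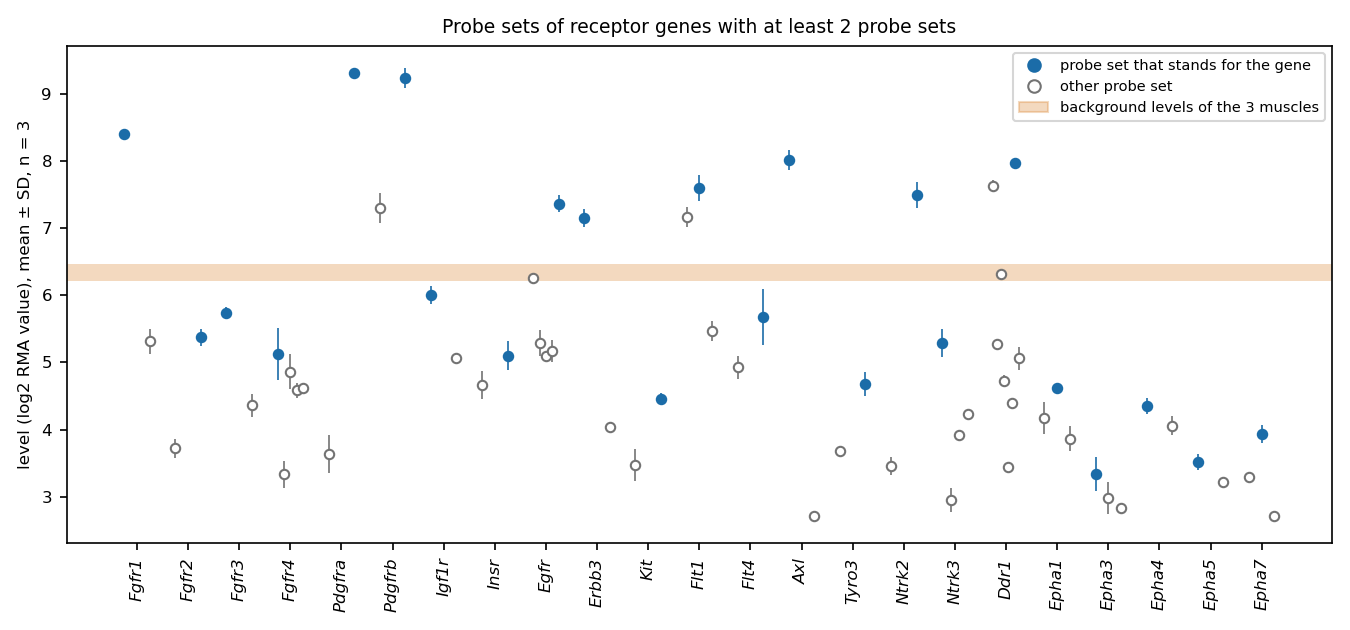
Mean ± SD over 3 muscles (log2 RMA value, vertical axis) of every probe set of the 23 receptor genes with at least 2 probe sets, filled for the probe set that stands for the gene and open for the others, with the band of background levels shaded. Open points of Fgfr1, Pdgfra, Axl and Ntrk2 lie far below the band while their filled points lie above it, and both points of Pdgfrb lie above it.

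The widest span between muscles of a receptor above background was 0.62, but most detected receptors varied more than genes of like level. Among the 14 receptors above background in all muscles the median SD was 0.13, and over all 6545 such genes it was 0.0732. Spread falls with level on these arrays, and set against genes within 0.5 of their own level, 10 of 14 receptors had an SD above the median of those genes. Kdr was the member farthest out, with an SD larger than that of 97.9% of 1917 genes of like level, followed by Pdgfrb with 93.3% of 1245. No receptor had a 2-fold range, a limit passed by 0.224% of all genes above background in at least 1 muscle, and at a 1.5-fold limit Kdr alone did, against 1.99% of all genes. When limma set each variance beside that of genes of similar level, over 7143 genes, 0 of 16 receptors varied in excess after Benjamini-Hochberg adjustment, and 0.0560% of all genes did. With shares this low for the 2-fold range and for limma, a count of 0 among 16 genes says little about the receptors. At an unadjusted p under 0.05 there was 1 receptor, Kdr (limma adjusted p = 0.92), and 4.76% of all genes were below this value. For Pdgfrb the limma adjusted p was 0.97, and it was at least 0.92 for each of the 16. Over the alternatives that gave Kdr a value its adjusted p ran from 0.86 to 0.99, and it was 0.99 without muscle 3.

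**Figure D4:**
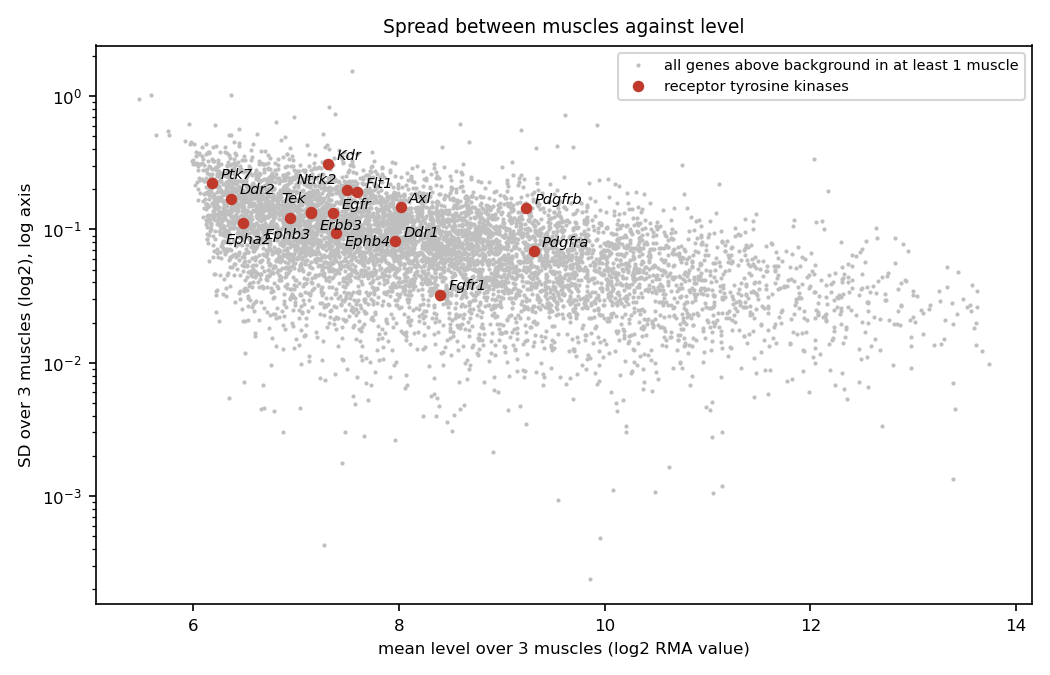
SD over the 3 muscles (log2, log axis) against mean level (log2 RMA value) for every gene above background in at least 1 muscle (grey) and for the 16 receptors among them (red, named). Kdr has the largest SD of the receptors, 0.31, and Fgfr1 the smallest, 0.03, and all 16 lie within the cloud of other genes.

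A shift of the receptors as a whole in 1 muscle was small. Of the 14 receptors above background in all muscles, 11 were higher in muscle 1 than in the mean of the other muscles, where 61.1% of all such genes were. In muscle 2 the count was 7 of 14 against 55.0%, and in muscle 3 it was 5 of 14 against 35.1%. Their median departure from the mean of the other muscles was 0.10, 0.01 and -0.08 for muscles 1, 2 and 3, beside 0.03, 0.01 and -0.04 for all such genes. With Ddr2 and Ptk7, which passed only through muscle 1, the receptor medians were 0.12, 0.01 and -0.08. Over all 43 receptors with no filter they were 0.01, 0.01 and -0.01. Of the 4 measured adipocyte markers, Fabp4 (12.21, 12.24 and 12.22) and Adipoq (10.59, 10.55 and 10.40) were above background in every muscle. Pparg was at 6.60, 6.52 and 5.93, above it in muscles 1 and 2, and Lep at 5.94, 6.60 and 5.36, above it in muscle 2 only. Adipoq, Pparg and Lep were lowest in muscle 3, where Pparg and Lep were under the line, and Fabp4 spanned 0.04. The median departure of the 4 markers in muscle 3 was -0.40. The 5 macrophage markers had mean levels of 7.78, 7.84 and 7.74. The part of these markers in the receptor values was not tested.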

How the data were processed

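RNA of 3 normal muscles, 500 ng of which was amplified and labelled with biotin per the labels' protocols, was hybridised to a 3' expression array. The values the authors deposited are on the log2 scale, made with RMA per the submitters' processing notes (background correction, quantile normalization, summary of probes). Not given in the sources used here are the version of RMA and the set of arrays it was run on. Quantile normalization hides changes shared by most genes.

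Platform annotation named 1 gene for 20393 of 22690 probe sets, several for 691 and none for 1606. All 43 receptor symbols matched RefSeq (GRCm38.p6) by Entrez number. A gene's level is its probe set with the highest mean. Background is the 95th percentile of 122 probe sets of 88 organ-restricted genes, a list written for this work in place of an earlier list, not used here, that had set a lower line, close to the 90th percentile of this one. Range is highest minus lowest muscle, and departure a muscle minus the mean of the others. Gene variances (2 degrees of freedom) were set against limma's prior (trend on level, robust fit, the prior degrees of freedom shared by all genes), with a one-sided F test and Benjamini-Hochberg adjustment at 0.05. The planned test took squeezeVar's own prior degrees of freedom for each gene, which on simulated data for the 3 muscles (7143 genes) called 0 of 200 genes moved in 1 muscle. It was replaced by the shared value, which called 199 of 200, after the real data had been fitted with the planned test (0 genes called). Each simulated gene had exactly the prior SD of its level, and the moves were 1 or 2 on the log2 scale. The widest range of a receptor above background was 0.62, so the simulation does not show what the test can find among the receptors. No source says that the muscles came from separate animals, so p-values and SDs cover sample-to-sample spread only, which may be technical, and 3 arrays limit precision.

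The members and lists were chosen with earlier results of these data known. Named are all receptors, of each list of ligands, co-receptors, signalling genes and other receptors the first 3 members above background in all muscles in written order, and members of these lists with a 2-fold range. The rule did not cover cell type markers, and those and the other pathway genes were named after their values were seen. Protein comparison was not done here. Alternatives were other scalings, probe set rules, background levels, ranges, limma settings, no filter and leaving out each muscle. R 4.3.3, limma 3.58.1, Python 3.11.15, numpy 2.4.6, pandas 2.3.3 and matplotlib 3.10.9 were used.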

Additional observations from a re-analysis of the deposited data

How the results depend on the processing

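The count of receptors above background in all muscles was 14, against 52.8% of all genes. It became 9 with probe sets averaged (44.1% of all genes) and 3 with the background at the 99th percentile (30.3%). When every probe set had to pass, it was 6 (34.8%). It became 13 without probe sets matching several transcripts (Fgfr1 lost) and 16 at the 90th percentile, an alternative chosen after seeing the data (Ddr2 and Ptk7 gained). The count stayed at 14, the same genes, under the other scalings and without each muscle in turn. Quantile normalization was already part of the processing and moved receptor levels little when repeated, so it could hardly change the calls. Median centring moves levels and lines together, so it could not change these calls. Leaving out a muscle could not either while the probe sets stayed the same, as Ddr2 and Ptk7 passed in muscle 1 only. The count of receptors with a wide range, 0, became 1 at a 1.5-fold limit. The limma count of 0 held under every alternative run, with 0 to 3 receptors at an unadjusted p under 0.05. Over all genes the limma count ran from 0 to 10. It was 0 with the planned prior degrees of freedom per gene, with probe sets averaged, with no trend on level and without muscle 3. Under those settings the receptor count of 0 carries no information. At the 99th percentile only 5 receptors were tested. Leaving out a muscle gave a median departure in muscle 2 from -0.13 (without muscle 3) to 0.070. Of 27 recomputed median departures 3 changed sign, muscle 2 without muscle 3 (-0.13), muscle 2 under quantile normalization (-0.0032) and muscle 3 with probe sets averaged (0.025). Of 387 receptor levels recomputed, 362 stayed within 1 SD, and of the 25 others 22 came from averaging probe sets. Most of the 387 could not have moved, so the 362 are no measure of stability. The background does not enter a level, and median centring keeps its mean over the muscles. Leaving out 1 of 3 values of a probe set shifts its mean by less than 1 SD. No paired analysis was possible because there is a single group. The values used here come without detection calls, so receptors near the line (Epha2, Ddr2, Ptk7, Tie1, Igf1r, Flt3 and Erbb2) cannot be firmly placed on either side.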
